A study of Mus musculus with 9 samples.

Results

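The genes described here encode 10 surface molecules through which dendritic cells stimulate or restrain T cells. They are Cd80, Cd86, Icosl, Cd40, Cd83, Cd274, Pdcd1lg2, Cd276, Vsir and Havcr2. They were chosen by symbol, and each matched 1 of the 45535 named rows of the table. All 10 reached the minimum mean of 10 normalized counts and entered the test across 18202 genes. A normalized count is the number of reads of a gene divided by 1 scaling factor per sample.

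T cells need a costimulatory signal beside recognition of antigen. CD80 and CD86 give it by binding CD28 and withdraw it by binding CTLA-4, while ICOSL binds ICOS on activated T cells. PD-L1 (encoded by Cd274) and PD-L2 (Pdcd1lg2) bind PD-1 and restrain T cells. CD40 is a receptor of the TNF receptor family through which T cells activate the dendritic cell, and CD83 is a maturation marker of dendritic cells that keeps CD86 and MHC class II on the surface. B7-H3 (Cd276), VISTA (Vsir) and TIM-3 (Havcr2) are further members or relatives of the checkpoint families, and TIM-3 is carried by resting type 1 conventional dendritic cells (cDC1).

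The samples were CD103+ lung dendritic cells of C57/BL6j mice, all given bleomycin, a drug used to injure the lung and model fibrosis, and all taken after 7 days. CD103 is the integrin encoded by Itgae. Cells were freed with collagenase and isolated on magnetic beads, and RNA was sequenced either directly (before culture, 5 samples) or after 18 h in RPMI medium with serum and antibiotics (after culture, 4 samples). Each group was thus exposed to bleomycin and bead isolation, and no untreated lung was part of the comparison. The extraction note in the labels speaks of lung RNA, while titles and design text describe isolated cells. Whether samples came from separate mice is not stated, so p-values measure the spread between these samples, which may be technical.

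Named genes held 14673818 to 35286110 reads per sample, and a single read equalled 0.758 to 1.79 normalized counts. No member was near that floor, since the lowest read number of any member in any sample was 151, for Cd276. Transcripts of genes listed as cDC1 markers were read in each sample. The summed normalized counts of 11 cDC1 markers, among them Xcr1, Clec9a and Itgae, were 143423 to 172698 before and 32451 to 36273 after culture. Itgae itself fell from 18138 ± 1537 to 1727 ± 335 (limma adjusted p = 4.45e-11), Xcr1 from 5836 ± 781 to 114 ± 32.5 (limma adjusted p = 8.53e-12) and Clec9a from 2756 ± 286 to 315 ± 27.8 (limma adjusted p = 9.87e-12). Flt3 rose from 8170 ± 638 to 13082 ± 1987 (limma adjusted p = 6.70e-05) and had the highest mean count of the 11 after culture. Replicate 4 before culture was at an end of its group for 8 members, with the highest value of Cd80, Cd86, Cd83 and Havcr2 and the lowest of Cd274, Pdcd1lg2, Cd276 and Vsir. Its summed monocyte and interstitial macrophage markers were the lowest before culture (21997 against 33290 to 41100 in the other samples, 8 genes), and its epithelial markers the highest (40164 against 23893 to 27577, 8 genes). Without this sample the same 4 members were higher and the same 4 lower.

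After culture the ligands of PD-1 and the receptor CD40 were higher, Cd80 was slightly higher, and Cd86, Icosl, Cd83 and Havcr2 were lower. Of the 10 members, 4 were higher and 4 lower at an adjusted p under 0.05 (limma on log2 of the value plus 1, Benjamini-Hochberg adjustment over all tested genes). Among all tested genes 68.8% passed this threshold, 34.2% higher and 34.6% lower, so a share of 8 in 10 is close to that of the whole table. The groups did not overlap for the same 8 members, and for 57.3% of all tested genes. A change of at least 2-fold on the log2 scale was met by 4 members, namely Pdcd1lg2, Cd274, Cd40 and Havcr2, and by 32.7% of all tested genes. These are bulk samples, in which fewer cells of a type and less RNA per cell cannot be told apart.

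**Figure D1:**
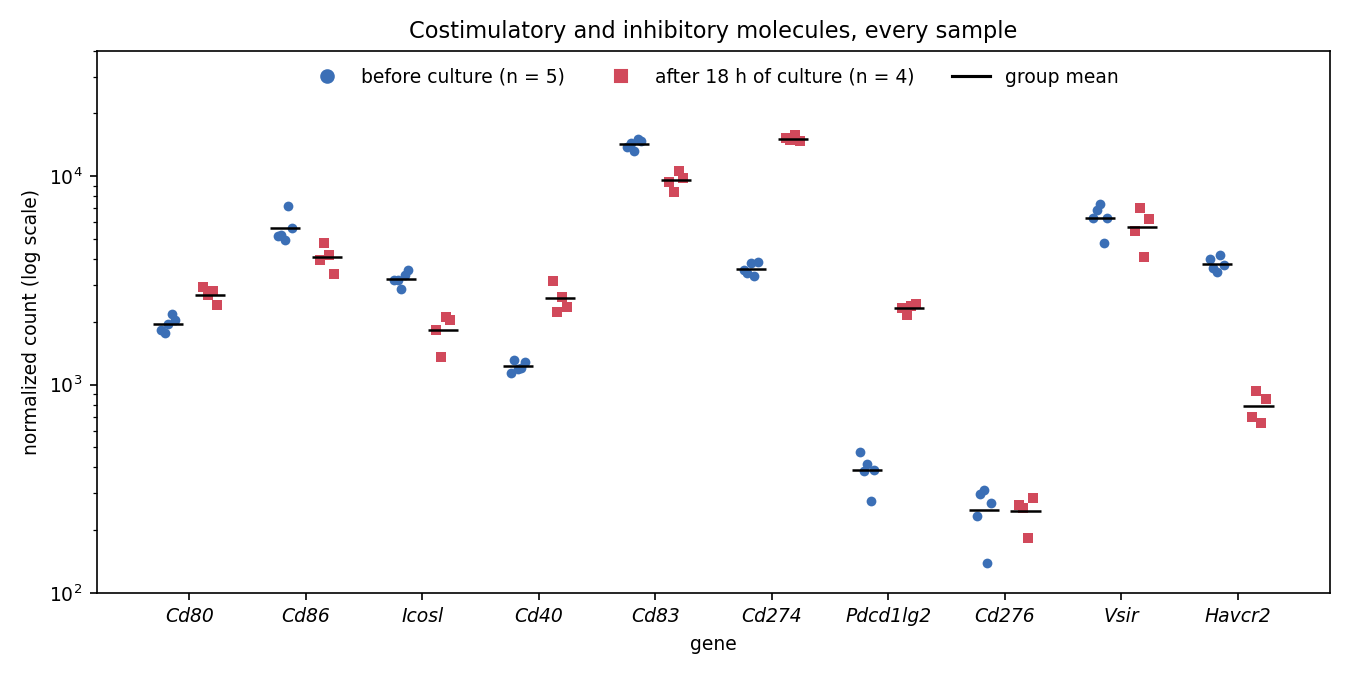
Normalized counts (log scale) of the 10 genes in every sample, with circles for the 5 samples before culture, squares for the 4 samples after 18 h and a bar at each group mean. The groups separate for every gene except Cd276 and Vsir, and the gaps are widest for Pdcd1lg2, Cd274 and Havcr2.

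Of the best known pair of costimulatory ligands, Cd80 rose and Cd86 fell. Cd80 had normalized counts of 1822, 1762, 1953, 2177 and 2042 in replicates 1 to 5 before culture and 2937, 2678, 2800 and 2396 in replicates 1 to 4 after culture. Every cultured sample was above every uncultured one, although the nearest samples lay only 1.10-fold apart. The mean was 1.38-fold higher after culture, a difference of 0.47 on the log2 scale with an SE of 0.0837 (limma adjusted p = 2.24e-04). A correction of each sample for the GC content and length of transcripts brought it to 0.13, which no longer passed (limma adjusted p = 0.152).

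Cd86 gave 5137, 5199, 4955, 7172 and 5638 before and 3978, 4766, 4195 and 3394 after culture. Replicate 4 before culture was the highest sample, and the groups came within 1.04-fold of each other without overlapping. The mean was 1.38-fold lower in cultured cells, with a log2 fold change of −0.46 and an SE of 0.117 (limma adjusted p = 0.00348). With the GC and length correction the log2 fold change was −0.79 (limma adjusted p = 2.62e-05). Both transcripts were far above the read floor, and no 50-base window of the longest Cd80 or Cd86 transcript occurs in another gene.

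Icosl, the ligand of ICOS, was lower in every cultured sample. Its values were 3174, 3158, 2872, 3363 and 3539 before and 1830, 1353, 2104 and 2049 after culture. The spread was wider after culture, where replicate 2 was the lowest. The mean fell from 3221 ± 250 (SD, n = 5) to 1834 ± 342 (SD, n = 4). On the log2 scale the change was −0.83 with an SE of 0.117 (limma adjusted p = 2.94e-05).

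Cd40, whose product receives CD40L from helper T cells and licenses dendritic cells for cross-priming, rose 2.12-fold. It was read at 1136, 1307, 1193, 1197 and 1282 before and at 3139, 2218, 2640 and 2361 after culture. The 5 uncultured samples lay close together, and the lowest cultured sample was 1.70-fold above the highest of them. The log2 fold change was 1.07 with an SE of 0.0967 (limma adjusted p = 4.00e-07).

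Cd83 had the highest count of all members before culture and was lower after it. The samples before culture held 13834, 14460, 13183, 15026 and 14680, and those after culture 9409, 8438, 10550 and 9752. The mean was 1.49-fold lower (log2 fold change −0.58 with an SE of 0.0796, limma adjusted p = 2.20e-05). Cd83 and Cd86 thus fell while Cd40 and Cd80, also counted among maturation markers, rose.

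**Figure D2:**
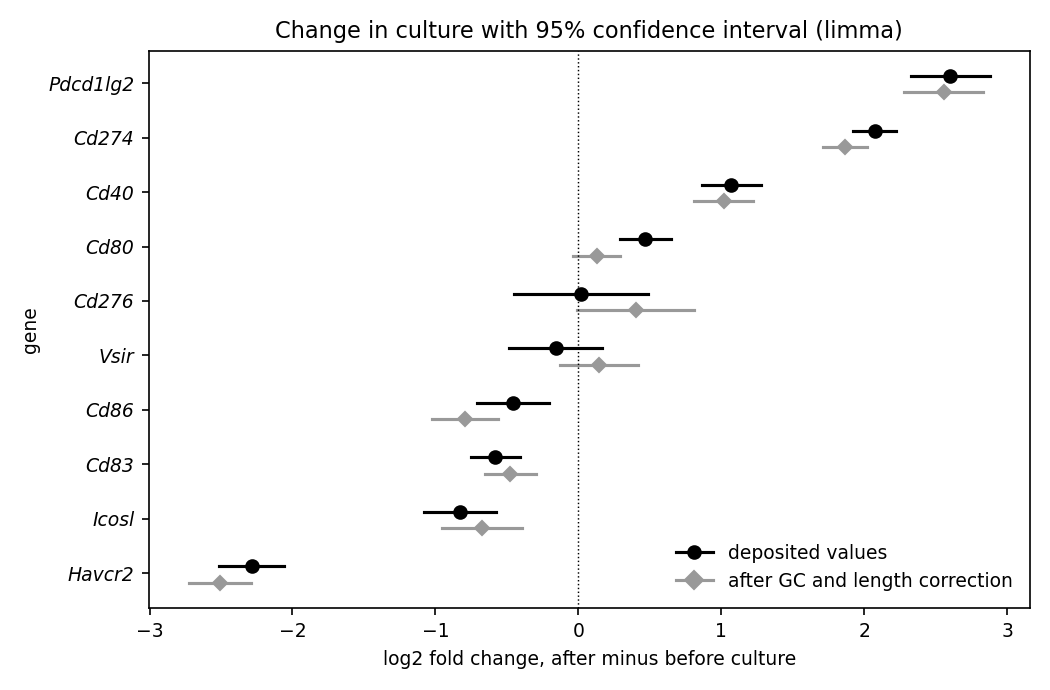
Log2 fold change after minus before culture for each gene, with the 95% confidence interval from limma, for the deposited values (circles) and with the GC and length correction (diamonds). Pdcd1lg2 and Havcr2 mark the ends at 2.60 and −2.29, the intervals of Cd276 and Vsir include 0 in both fits, and that of Cd80 includes 0 after the correction.

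The PD-1 ligands had the largest rises among the members. Cd274 was read at 3564, 3430, 3828, 3304 and 3893 before and at 15217, 14981, 15701 and 14683 after culture. Replicates were tight in both groups, with a coefficient of variation of 7.01% before and 2.84% after culture. The mean was 4.20-fold higher (log2 fold change 2.07 with an SE of 0.0703, limma adjusted p = 3.12e-11), which placed Cd274 at rank 663 among 18202 genes ordered from the largest rise. An antisense gene model, AC119228.1, covers 14.1% of the exonic bases of Cd274, and the strandedness of the counting is not given in the sources used here, so reads of the 2 strands cannot be told apart there.

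Pdcd1lg2 went from 472, 384, 416, 275 and 390 to 2322, 2146, 2385 and 2443. The lowest cultured sample was 4.54-fold above the highest uncultured one. The mean went from 387 ± 72.1 to 2324 ± 128 (log2 fold change 2.60 with an SE of 0.128, limma adjusted p = 9.49e-10), at rank 340 of the rises. Pdcd1lg2 started from a level per length that was far below that of Cd274, and its share of the pair grew. The ratio of Pdcd1lg2 to Cd274 per exonic kilobase was 0.154 to 0.245 before and 0.265 to 0.307 after culture.

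The promoters of the PD-1 ligand genes are shown because these neighbours moved together, beside those of Icosl and Havcr2, which moved the other way. Sequences are from RefSeq (GRCm38.p6), plus strand, from 250 bases before to 50 after the start site, and 7 of the 10 members had an entry. Cd40, Cd83 and Cd86 were the members without one. Capitals mark matches on either strand to the NF-kB consensus, to AP-1 (TGANTCA), to a GAS site (TTCNNNGAA), to an ISRE core (GAAA, any pair of bases, GAAA) or to a PU.1 core (GAGGAA), and no matches overlapped. The windows are chr19:29367188-29367487, chr19:29410669-29410968, chr10:78069118-78069417 and chr11:46454681-46454980.
Cd274: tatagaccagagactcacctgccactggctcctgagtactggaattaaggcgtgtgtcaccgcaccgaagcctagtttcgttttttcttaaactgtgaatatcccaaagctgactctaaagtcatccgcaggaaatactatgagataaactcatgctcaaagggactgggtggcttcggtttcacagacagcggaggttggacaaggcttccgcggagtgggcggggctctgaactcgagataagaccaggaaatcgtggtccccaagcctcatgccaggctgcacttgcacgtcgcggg
Pdcd1lg2: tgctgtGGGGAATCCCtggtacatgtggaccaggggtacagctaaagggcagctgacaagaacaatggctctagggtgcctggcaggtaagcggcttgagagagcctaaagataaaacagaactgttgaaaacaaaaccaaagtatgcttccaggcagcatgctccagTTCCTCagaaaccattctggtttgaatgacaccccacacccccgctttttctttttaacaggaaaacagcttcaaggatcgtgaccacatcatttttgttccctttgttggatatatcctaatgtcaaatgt
Icosl: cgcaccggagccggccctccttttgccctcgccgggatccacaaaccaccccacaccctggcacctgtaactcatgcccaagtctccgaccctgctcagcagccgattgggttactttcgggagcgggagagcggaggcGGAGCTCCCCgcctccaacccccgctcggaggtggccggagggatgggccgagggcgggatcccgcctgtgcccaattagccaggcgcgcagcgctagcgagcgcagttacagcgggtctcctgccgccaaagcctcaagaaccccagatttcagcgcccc
Havcr2: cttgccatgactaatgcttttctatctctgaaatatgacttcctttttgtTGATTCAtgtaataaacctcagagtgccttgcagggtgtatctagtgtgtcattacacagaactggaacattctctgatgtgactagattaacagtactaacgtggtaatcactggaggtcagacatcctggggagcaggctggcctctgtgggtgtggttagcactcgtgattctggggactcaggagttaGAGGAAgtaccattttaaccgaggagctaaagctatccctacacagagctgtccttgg

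The window of Pdcd1lg2 held an NF-kB match starting 244 bases before the start site and a PU.1 core 82 bases before it. That of Icosl held an NF-kB match 111 bases before the start site, and that of Havcr2 an AP-1 match 200 bases and a PU.1 core 8 bases before it. None of these letters occurred in the Cd274 window. Among the windows not shown, that of Cd80, a member that rose, held an AP-1 match with the same letters as that of Havcr2. The window of Cd276 held a PU.1 core and that of Vsir no match. Of 32851 promoters of the same length, 8.46% held the NF-kB consensus, 7.81% the AP-1 letters, 8.30% the GAS letters, 3.44% the ISRE core and 28.3% the PU.1 core. CpG dinucleotides numbered 15 in the window of Cd274, 3 in that of Pdcd1lg2, 26 in that of Icosl and 3 in that of Havcr2, against a median of 7. A match is a description of the letters and says nothing of binding.

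Cd274 and Pdcd1lg2 lie next to each other on chromosome 19 (GRCm38, GENCODE M21), 22824 bases apart, on the plus strand. The start of Plgrkt, a plasminogen receptor gene on the opposite strand, is 65 bases from that of Cd274. Plgrkt rose from 769 ± 78.2 to 1457 ± 64.9 (log2 fold change 0.93, limma adjusted p = 5.15e-07), and Ric1, on the far side of Pdcd1lg2, from 3436 ± 111 to 12384 ± 714 (1.85, limma adjusted p = 4.70e-11). These values prompted a wider look, chosen after they were seen. Of 17 protein-coding genes overlapping a window of 500 kb on either side of Cd274, 13 were tested, 11 of them higher, 1 lower and 1 not past the threshold, where 34.2% of all tested genes were higher. Without Cd274, Pdcd1lg2, Plgrkt and Ric1 themselves, 7 of 9 were higher. Insl6, a relaxin family gene, went from 55.9 ± 13.6 to 809 ± 66.3 (3.86), and Jak2, the kinase of interferon and cytokine receptors, from 11097 ± 505 to 18840 ± 1614 (0.76). Slc1a1, at the outer edge of the window, was the lower gene (31.3 ± 5.90 against 5.84 ± 1.83), and Plpp6 was the gene that did not pass (312 ± 16.5 against 363 ± 45.6). Plpp6 passed with quantile normalization (limma adjusted p = 0.00735) and without replicate 1 after culture (limma adjusted p = 0.0209).

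**Figure D3:**
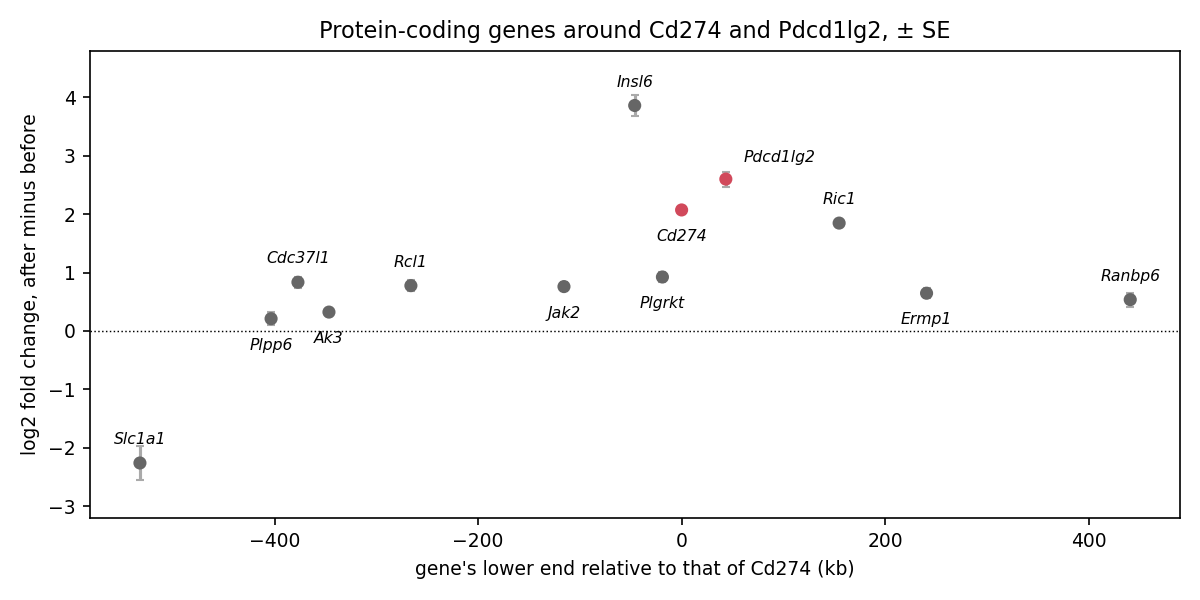
Log2 fold change after minus before culture (points, bars ± SE) of the 13 tested protein-coding genes around Cd274, against the distance of each gene's lower end from that of Cd274 in kilobases. Cd274 and Pdcd1lg2 are coloured, and 11 of the 13 genes are above 0 and past the threshold, with Insl6, Pdcd1lg2, Cd274 and Ric1 the highest.

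The other members had neighbours that moved in either direction. Counting Plgrkt and Ric1, the members had 18 nearest protein-coding neighbours that were no members. Of the 17 matched by symbol 14 were tested, and of these 4 were higher, 6 lower and 4 not past the threshold. Beside Cd86, Casr fell from 227 ± 30.4 to 23.0 ± 8.31 and Ildr1 from 823 ± 158 to 59.7 ± 12.1. Beside Icosl, which was lower, Dnmt3l rose from 7.39 ± 3.54 to 118 ± 24.5. Of 9 neighbours that passed beside a member that passed, 8 shared its direction (Casr, Ildr1, Gatd3a beside Icosl, Ncoa5 beside Cd40, Jarid2 beside Cd83, Med7 beside Havcr2, Plgrkt and Ric1), and Dnmt3l went the opposite way. Plgrkt and Ric1 belong to the region described above. Neighbours were taken at any distance, which for these 9 ran from 65 bases (Plgrkt) to 926342 bases (Jarid2). Over all tested genes 34.2% were higher and 34.6% lower, and whether neighbours share direction more often than other genes was not tested.

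Among the remaining checkpoint molecules, Havcr2 fell most and Vsir and Cd276 did not pass the threshold. Havcr2 had values of 4009, 3612, 3452, 4193 and 3729 before and 698, 933, 656 and 851 after culture. All cultured samples were at least 3.70-fold below the lowest uncultured one. The mean was 4.84-fold lower (log2 fold change −2.29 with an SE of 0.105, limma adjusted p = 4.99e-10), at rank 1178 among the falls of 18202 genes.

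Vsir, whose product VISTA restrains T cells and is abundant on myeloid cells, was read at 6299, 6847, 7390, 4756 and 6292 before and at 5467, 7031, 4104 and 6213 after culture. The groups overlapped over most of their range. The log2 fold change was −0.16 with a 95% confidence interval from −0.48 to 0.16 (SE 0.150, limma adjusted p = 0.361), which leaves room for a change of either sign. Within each group, samples ranked by Vsir in the same order as by their summed monocyte and interstitial macrophage markers. Marker sums of other cell types were ranked too. After culture the sum of type 2 dendritic cell markers and Havcr2 had the same order as Vsir. Before culture the monocyte and interstitial macrophage sums were 33825, 38021, 41100, 21997 and 33290, and after culture 12399, 21195, 7825 and 13572. The groups did not overlap in these sums although they did in Vsir, and the part of these cells in the level of Vsir was not tested.

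Cd276 was the scarcest member. Its values were 233, 298, 313, 139 and 270 before and 265, 256, 184 and 286 after culture. Replicate 4 before culture was the lowest sample of all. The log2 fold change was 0.018 (95% confidence interval −0.45 to 0.48, SE 0.216, limma adjusted p = 0.946), and without that replicate it was −0.18 (limma adjusted p = 0.297). With the GC and length correction it was 0.40 (limma adjusted p = 0.0759). A gene model on the opposite strand, Gm10657, covers 11.4% of the exonic bases of Cd276. Fibroblasts and endothelial cells also carry B7-H3. The summed level of 7 fibroblast markers was 15822 to 28809 before and 2315 to 4582 after culture, and that of 6 endothelial markers 21920 to 31725 and 3189 to 4150. Their part in the level of Cd276 was not tested.

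Levels of different genes were compared as normalized counts per exonic kilobase, counting every annotated exonic base of a gene once. For some members this length exceeds that of the longest transcript, as for Cd86 (3661 against 2539 bases) and Icosl (4620 against 2814 bases). Close places in the order can change with the length used, and an order by transcript length was not computed. Before culture Cd83 was first at 5535 ± 284 (SD, n = 5), followed by Cd86 at 1535 ± 247, Havcr2 at 1396 ± 110 and Vsir at 1260 ± 196. Each of these last 3 overlapped its neighbour in the order, and Vsir overlapped Cd274 at 995 ± 69.8. Icosl (697 ± 54.0), Cd80 (527 ± 45.1), Cd40 (359 ± 20.6), Pdcd1lg2 (198 ± 36.8) and Cd276 (68.5 ± 19.0) followed, without overlap between neighbours.

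After culture Cd274 was first at 4182 ± 119 (SD, n = 4), with samples overlapping those of Cd83 at 3708 ± 340. Pdcd1lg2 (1185 ± 65.4), Vsir (1138 ± 248) and Cd86 (1115 ± 155) came next and overlapped each other in order. Cd40 (760 ± 119) and Cd80 (730 ± 62.1) overlapped, as did Icosl (397 ± 74.0) and Havcr2 (288 ± 47.7), and Cd276 was last at 67.7 ± 12.1. By exonic length Pdcd1lg2 moved from ninth to the third place and Havcr2 from the third to ninth.

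**Figure D4:**
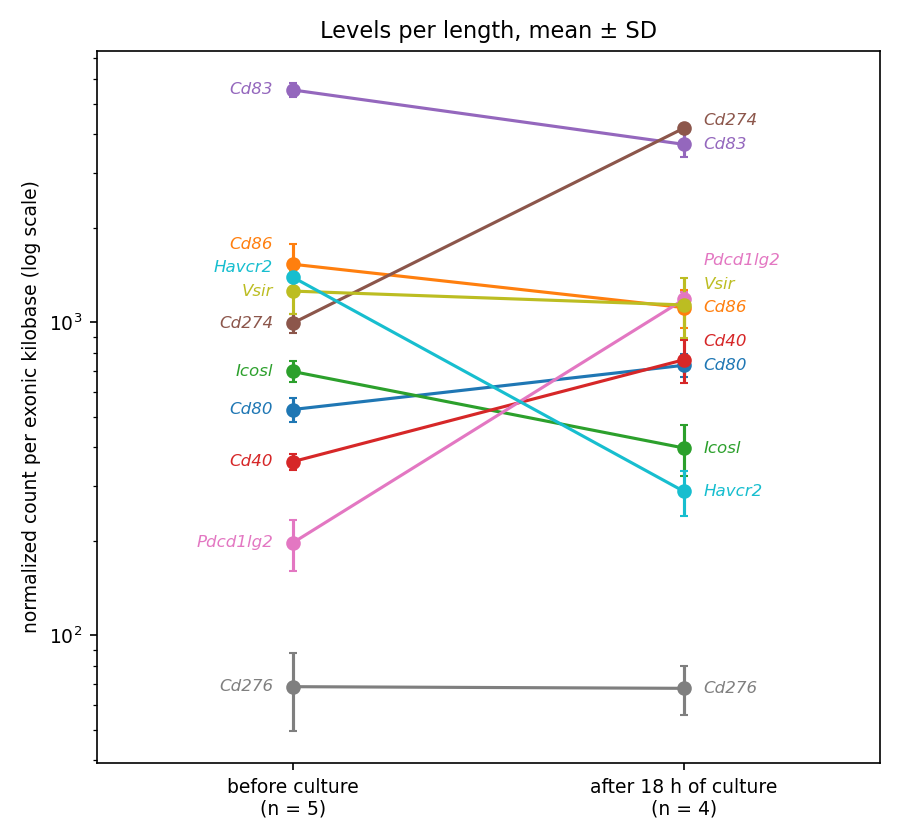
Mean normalized count per exonic kilobase (log scale) of each gene before (n = 5) and after 18 h of culture (n = 4), with bars for the SD. Cd83 leads before culture at 5535 and Cd274 after it at 4182, and Pdcd1lg2 and Havcr2 trade places with this measure of length.

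Ratios of 2 members within a sample do not depend on the scaling between samples, and 6 were compared. Per exonic kilobase, the ratio of Cd274 to Cd86, an inhibitory against a costimulatory ligand, was 0.466 to 0.781 before and 3.18 to 4.37 after culture. Every uncultured sample had more Cd86 than Cd274, and every cultured sample more Cd274 than Cd86. The mean log2 ratio rose by 2.53 (exact two-sided permutation test, p = 0.0159, adjusted p = 0.0190 over the 6 ratios). That p is the smallest that exact permutation of these samples allows.

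Cd274 against Cd80, which bind each other on the same cell, went from 1.55 to 2.00 before to 5.30 to 6.26 after culture, a rise of 1.60 in mean log2 ratio. Cd80 against Cd86 went from 0.3002 to 0.390 before to 0.556 to 0.730 after culture, a rise of 0.93, so Cd86 remained the more abundant in each sample. Cd40 against Cd86 rose by 1.53 and Pdcd1lg2 against Cd274 by 0.53. For each of these 4 ratios the groups did not overlap and the exact permutation p was 0.0159 (adjusted p = 0.0190). Cd83 against Cd86 overlapped, at 2.98 to 3.96 before and 2.52 to 4.09 after culture, with a difference of −0.12 in mean log2 ratio (exact permutation p = 0.460, adjusted p = 0.460).

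**Figure D5:**
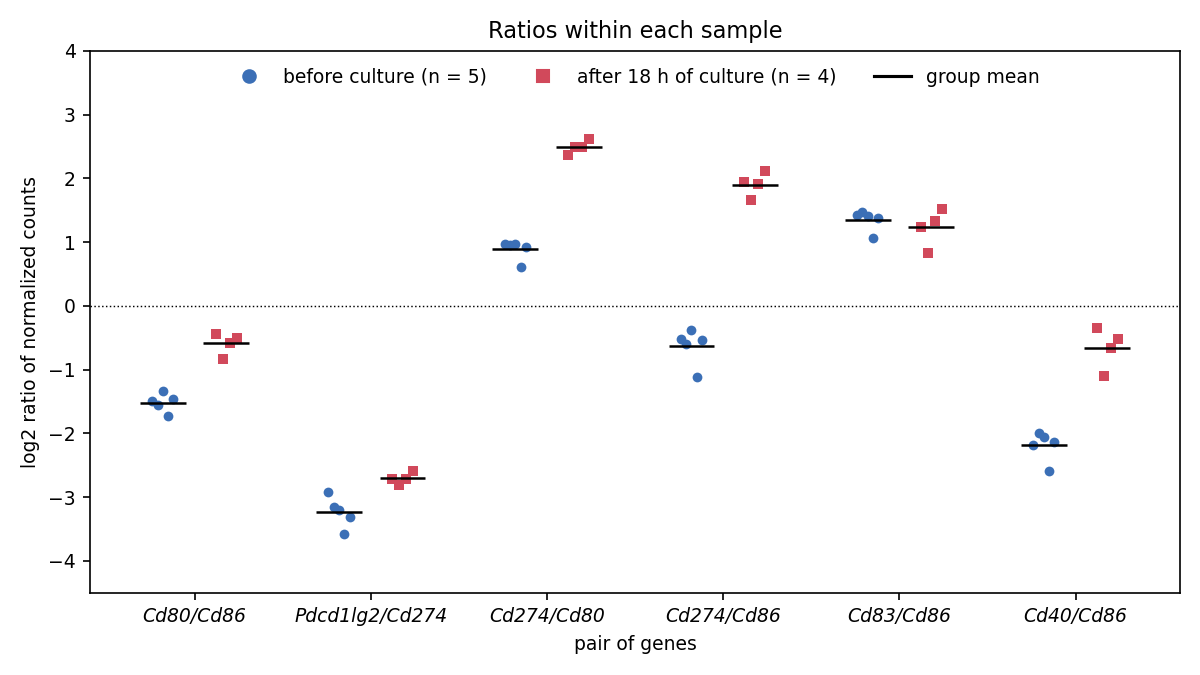
Log2 ratio of normalized counts, not corrected for length, for 6 pairs of genes in every sample (circles before culture, n = 5, squares after 18 h, n = 4, bars at the group means). The groups separate for each pair except Cd83/Cd86, and for Cd274/Cd86 they lie on opposite sides of 0.

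Binding partners of the members, among them the T cell receptors CD28, CTLA-4, ICOS and PD-1, were read in the same samples. Of 11 such genes 10 were tested, 3 of them higher and 4 lower, with a median log2 fold change of −0.29 against 0.0065 over all tested genes. Of all tested genes 34.2% were higher and 34.6% lower. Pdcd1, which encodes PD-1 itself, rose from 282 ± 32.7 to 1142 ± 123 (log2 fold change 2.02, SE 0.110, limma adjusted p = 2.65e-09). Ctla4, the inhibitory receptor of CD80 and CD86, fell from 671 ± 63.6 to 177 ± 27.4 (−1.93, SE 0.120, limma adjusted p = 9.29e-09). The receptors Cd28 (956 ± 244 against 713 ± 193) and Icos (1535 ± 228 against 1603 ± 342) did not pass. The summed level of 7 T cell markers overlapped between the groups, at 4181 to 4882 before and 3752 to 5092 after culture, with 1 marker higher and 2 lower. Rgmb, a partner of PD-L2, was 1.41-fold higher and Selplg, a partner of VISTA, went from 16894 ± 994 to 20277 ± 670 (limma adjusted p = 0.00587). Ceacam1, a ligand of TIM-3, was 1.85-fold lower, and 49.5% of its 50-base windows occur in other genes, chiefly Ceacam2. Lgals9, also a ligand of TIM-3, did not pass (2399 ± 268 against 2210 ± 734).

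Other checkpoint molecules moved in both directions. Of 18 such genes 16 were tested, 8 higher and 6 lower, with a median log2 fold change of 0.36. Over all tested genes 68.8% passed, 34.2% higher and 34.6% lower. Btla, which dendritic cells of the cDC1 lineage carry, was 9.65-fold lower (4259 ± 413 against 441 ± 92.7), and Lag3 9.12-fold lower (691 ± 36.7 against 75.8 ± 32.5). The inhibitory ligand gene Cd200 rose 2.70-fold (1021 ± 211 against 2753 ± 161) and its receptor gene Cd200r1 2.98-fold (582 ± 60.3 against 1734 ± 427). The ligands of TIGIT and CD226 were lower, with Pvr 1.49-fold, Nectin2 2.39-fold and Nectin3 2.40-fold, and so was Tigit itself (1.87-fold).

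Costimulatory ligands of the TNF family, which act on T cells beside the B7 ligands, moved in both directions. All 7 were tested, 2 higher and 2 lower, with a median of −0.36. The shares over all tested genes were 34.2% higher and 34.6% lower. Tnfsf4 (OX40L) rose 14.0-fold, from 44.1 ± 12.6 to 616 ± 107, and Tnfsf9 (4-1BBL) fell 14.3-fold, from 2323 ± 212 to 162 ± 49.8. Tnfsf14 was 2.56-fold lower with overlapping groups. Tnfsf8 was 1.27-fold higher with overlapping groups (log2 fold change 0.34, limma adjusted p = 0.0323), and it no longer passed without replicate 2 or 3 after culture or replicate 1, 3 or 5 before culture (limma adjusted p = 0.0524 to 0.111), which left 1 gene higher. With the GC and length correction Tnfsf8 was at 0.0044 (limma adjusted p = 0.975).

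Genes of CD40 and NF-kB signalling were mostly higher. Of 17 genes 12 were higher and 3 lower, against 34.2% higher and 34.6% lower over all tested genes. The median log2 fold change was 0.64. Relb, the partner subunit of the alternative NF-kB pathway downstream of CD40, rose 3.32-fold (3025 ± 221 against 10029 ± 739), the adaptor Traf1 3.09-fold and Birc2 4.40-fold. The 3 lower genes were Tnfaip3 (A20), 5.17-fold lower (32369 ± 1912 against 6264 ± 336), Nfkbia, which encodes the inhibitor IkBa, 3.15-fold lower (17319 ± 2300 against 5493 ± 220), and Nfkb1, 1.60-fold lower.

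Interferon receptor, JAK and STAT genes, through which PD-L1 is induced by interferons, held 9 higher and 1 lower among 15, with a median of 0.37. Among all tested genes 34.2% were higher and 34.6% lower. Stat3, a transcription factor downstream of cytokine receptors, was 1.80-fold higher (12822 ± 1110 against 23131 ± 893). Ifngr1, a chain of the interferon gamma receptor, was the lower gene, by 1.85-fold (10322 ± 630 against 5586 ± 701). Irf1 (6070 ± 492 against 6563 ± 724) and Socs1 (1222 ± 180 against 1231 ± 93.7) did not pass.

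Regulators of the members' turnover at the cell surface held 3 higher and 3 lower among 9 genes, with a median of 0.086. These counts are near the shares over all tested genes, 34.2% higher and 34.6% lower. Marchf8, a ubiquitin ligase that removes surface molecules, was 2.07-fold higher and the deubiquitinase gene Usp22 1.67-fold lower. Marchf1, another ubiquitin ligase gene of the list, was 1.28-fold lower with overlapping groups (2823 ± 177 against 2213 ± 416, limma adjusted p = 0.00918). Hip1r was 1.58-fold lower, and its log2 fold change of −0.67 was −0.22 with the GC and length correction, which did not pass (limma adjusted p = 0.150). Cops5 was 1.27-fold higher, and Cmtm4 1.29-fold higher with overlapping groups. Without replicate 2 after culture Cmtm4 did not pass (limma adjusted p = 0.0602). Cmtm6, which protects PD-L1 from lysosomal breakdown, did not pass (6923 ± 145 against 7359 ± 454).

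Genes of mature migratory dendritic cells were higher in 9 of 10 cases, against 34.2% of all tested genes, with a median log2 fold change of 2.57. Ccr7, the receptor that guides them to lymph nodes, was 6.69-fold higher, Tmem123 6.15-fold, Socs2 5.76-fold and Il15ra 10.2-fold. The 9 rises ran from a log2 fold change of 1.61 (Ccl22) to 3.32 (Il15ra). Cd274 at 2.07 and Pdcd1lg2 at 2.60 lay within those bounds, and Cd40 at 1.07 and Cd80 at 0.47 below them. With the GC and length correction Cd80 was at 0.13 and did not pass (limma adjusted p = 0.152). Cd83 (−0.58), itself a maturation marker, Cd86 (−0.46), Icosl (−0.83) and Havcr2 (−2.29) went the opposite way. Il12b did not pass (2948 ± 672 against 3719 ± 968).

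Over the 9 samples, the genes whose log2 values followed Cd274 most closely were Socs2 (Pearson r 0.999), Ramp3 (0.999) and Zc3h12d (0.999), among 11776 genes with a mean of at least 100. As many as 1641 of these genes had an r above 0.95, and these points share the split of the samples into the 2 groups. Ramp3 rose from 953 ± 76.9 to 8637 ± 281 and Zc3h12d from 530 ± 65.3 to 4102 ± 231. For Cd83 they were St6galnac2 (0.992, a symbol used by more than 1 row), Gvin3 (0.992) and Spn (0.992). Gvin3 went from 4689 ± 327 to 3048 ± 334 and Spn from 3097 ± 244 to 1813 ± 181.

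Markers of other cell types that carry these molecules were read as well. The 6 B cell markers summed to 2713 to 5019 before and 2743 to 3750 after culture, with 1 higher and 1 lower, and these ranges overlapped. The alveolar macrophage sum (7 genes) was 23716 to 33363 before and 12558 to 17464 after culture, with 5 lower and 1 higher, and the type 2 dendritic cell sum (6 genes) 5673 to 8016 and 2382 to 5653, with 4 lower and 2 higher. The neutrophil sum (7 genes) was 12721 to 21985 before and 813 to 1687 after culture, with 6 of 6 tested genes lower and Ly6g at or below 3 reads in every cultured sample. Plasmacytoid dendritic cell (4239 to 5066 against 2605 to 3080), NK cell (1083 to 2335 against 201 to 346), mast cell and basophil (682 to 995 against 38.9 to 90.1) and epithelial sums (23893 to 40164 against 4371 to 8306) did not overlap between the groups either. The cDC1 markers themselves were lower in 8 of 11 cases and higher in 3, where 34.6% of all tested genes were lower and 34.2% higher. All 4 members that fell and all 4 that rose therefore did so beside a lower summed level of macrophage, neutrophil and stromal markers, and the part of these cells in each result was not tested.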

How the data were processed

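RNA of 9 samples was sequenced, 5 before and 4 after 18 h of culture, and each was grouped by its title. The deposited values are the authors' normalized counts, a signal with no values below 0. DESeq2 and GRCm38 are named without a role, per the submitters' processing notes. The aligner, counter, annotation and strandedness are not given in the sources used here. Within 1e-06 reads, 100% of values fell on the step of a single read in their column, and these steps matched median-of-ratios size factors, so whole reads were recovered. Rows without a symbol (3782) were left out. They held 6.43 to 10.9% of reads before and 3.87 to 5.46% after culture, so this share did not overlap between the groups.

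Genes with a mean of at least 10 were tested with limma 3.58.1 in R 4.3.3 on log2(value + 1) with a trended prior variance and two-sided p-values adjusted by Benjamini-Hochberg over all 18202 genes. The script was tested on simulated data. A fold is the ratio of group means. Log2 fold changes refer to log2(value + 1), which understates those of low genes. Ratios of 2 members were compared by exact permutation in Python 3.11.15. Count tests on recovered reads used edgeR 4.0.16 and DESeq2 1.42.0. GC content, exonic length, shared 50-base windows and neighbours came from GENCODE M21 (GRCm38), which may differ from the annotation the authors used, and GC content and length were known for 97.8% of tested genes.

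The members and lists were chosen with earlier results of these data known. From each list up to 4 genes with the smallest adjusted p, and those against the direction of most, were named, with neighbours on the genome and, for Cd274 and Cd83, the 3 genes most alike over the samples. A gene that this rule names is not reported here. Genes that did not pass were named in addition, after their values were seen, as were Marchf1, the cDC1 markers and the genes around Cd274. A read count of 3 was the floor. Alternatives were pseudocounts of 0.5 and 8, a minimum mean of 50 or no filter, scaling by TMM, upper quartile or quantiles, sample weights, both count models, replicate blocks, removal of each sample's lowess trend on GC content and length, and leaving out each sample.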

Additional observations from a re-analysis of the deposited data

Results flagged for a closer look

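Both flagged values were in replicate 4 before culture, which lay far from the other 4 samples of its group relative to the group's range. Its log2 ratio of Cd274 to Cd80 was 0.602 (gap over range 0.892), where the other samples held 0.930 to 0.970. Its log2 ratio of Cd83 to Cd86 was 1.07 (gap over range 0.767), where the other samples held 1.38 to 1.48. In all 32 groups of values were examined, and chance flags about 1 in 20 of such groups.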

How the results depend on the processing

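Of the 10 members, Cd86, Icosl, Cd40, Cd83, Cd274, Pdcd1lg2 and Havcr2 kept their direction and passed in all 23 alternative fits. Cd80 failed to pass with the GC and length correction, alone (log2 fold change 0.13) and with a replicate block (0.15), so 3 members were higher there. Cd276 passed in no fit and changed sign with DESeq2 (−0.013), edgeR (−0.018), sample weights (−0.032) and when a replicate was left out (−0.18 to 0.15, with −0.021 and −0.0045 without replicates 1 and 2 after culture and −0.057 without replicate 4 after culture). Its highest values were 0.40 with the GC and length correction and 0.44 with the block as well. Vsir passed in no fit and was 0.14 after the correction, with or without the block. The number of genes past the threshold was 12524 and ran from 9925 (minimum mean of 50) to 14150 (no filter), and from 11770 to 12668 when a sample was left out. The ratio of Cd83 to Cd86 was 0.32 higher after the correction and 0.012 higher without replicate 2 after culture (range −0.22 to 0.012), and the cause was not tested. The other 5 ratios kept their direction, and passed in each fit except the replicate block by title number.

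Deviations of same-numbered samples from their group means correlated at −0.21 to 0.081 by title number. By library number all 4 pairs were positive (0.081, 0.25, 0.35 and 0.045). The values of 0.35 and 0.25 were the highest of any pair of an uncultured and a cultured sample. Whether either number marks shared mice is not stated, and the main fit used neither as pairs. With a replicate block by title number 11646 genes passed, and 12836 by library number, with the same count of 4 members higher and 4 lower. Over the 4 title pairs the ratio differences were 0.94 (Cd80/Cd86), 0.51 (Pdcd1lg2/Cd274), 1.61 (Cd274/Cd80), 2.56 (Cd274/Cd86) and 1.54 (Cd40/Cd86), where an exact sign-flip test cannot go below p = 0.125. The ratios were not compared over pairs by library number. Among 53 other named genes, 1201 of 1216 values kept direction and side of the threshold. With the title-number block Tnfsf8 (limma adjusted p = 0.101) and Cmtm4 (limma adjusted p = 0.0761) did not pass. With the correction and block Cops5 did not pass (0.15, limma adjusted p = 0.131) and Tnfsf8 changed sign (−0.021).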
